A study of Mus musculus with 12 samples.

Results

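Protein phosphatase 2A (PP2A) is a serine/threonine phosphatase that works as a holoenzyme of a catalytic C subunit, a scaffold A subunit and 1 exchangeable regulatory B subunit. The core of A and C is shared, and the B subunit, which comes from the B (B55), B' (B56), B'' (PR72) or striatin family, decides where the enzyme goes and which proteins it dephosphorylates. In skeletal muscle its known substrates include AMPK, Akt and other kinases of insulin and exercise signaling, from which it removes activating phosphates. Here 10 PP2A subunit genes are described in gastrocnemius: both catalytic genes, both scaffold genes and 6 regulatory genes of the B, B' and B'' families. They were chosen by name with results of the same comparison known. They had 16 of the 28944 rows (transcript clusters) of the array table and are 10 of the 19938 genes that have a row with a single symbol.

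The study asked whether feces of exercise-trained mice alter the muscle of the mice that receive them. Germ-free male ICR mice (strain label Tsl;ICR[GF], labelled 11 weeks old) were gavaged with feces of donors trained on a treadmill (RT, 6 mice) or of sedentary donors (RS, 6 mice). All of them then ate a high-fat diet and received the feces again until gastrocnemius was taken after a short fast, 1 week after the first gavage. Total RNA (250 ng) of each mouse went onto 1 Affymetrix Mouse Gene 1.0 ST array, and every value below is a log2 signal of such an array. The germ-free recipients carried no gut flora of their own before the transfer, so both groups are colonized mice and no germ-free control entered the comparison. Mice shared cages and received the same fecal samples, so that cage, fecal sample and training of the donors cannot be told apart, and the spread between mice of a group may be smaller than that between separate transfers.

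RS-4 and RS-6 stood apart from the other arrays. Their spread over all rows was 1.97 and 1.99 (SD of log2 signals), against 2.08 to 2.15 on the RT arrays and 2.06 to 2.13 on the other RS arrays. Medians lay between 4.40 and 4.48 on the RT arrays and between 4.46 and 4.63 on the RS arrays. Results that rest on RS-4 and RS-6 are therefore given with and without them. A row counted as called where limma gave it p under 0.05 before, and under 0.1 after, Benjamini-Hochberg adjustment over all rows. This rule called 3445 rows higher in RT and 3764 lower, or 11.9% and 13.0% of the rows. The muscle label fits the signals, in that 10 of 10 skeletal muscle genes such as Ckm and Acta1 had mean signals of 11.34 or more. None of the 10 was called in limma or by the methods' analysis of variance, 0 had an unadjusted p under 0.05, and their changes spanned -0.03 to 0.13.

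Of the 10 PP2A genes, 6 were called higher in RT than in RS, 0 were called lower and 4 were not called. The 6 were both catalytic genes (Ppp2ca and Ppp2cb), both scaffold genes (Ppp2r1a and Ppp2r1b), the B gene Ppp2r2d and the B' gene Ppp2r5a. Ppp2r2a, Ppp2r3a, Ppp2r5c and Ppp2r5e were not called. On the brightest row of each gene, all 10 changes were positive, between 0.04 and 0.545 on the log2 scale. Their median was 0.31, against -0.01 over all rows. With all its rows averaged, Ppp2r5c had a change of -0.04. All 10 genes were brighter than the median row (4.49), and the rows above that level had a median change of 0.08 and were called higher in 20.6% of cases. Because the members were picked with this contrast known, the counts and p-values are a description, and nothing is read from them against those shares.

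**Figure D1:**
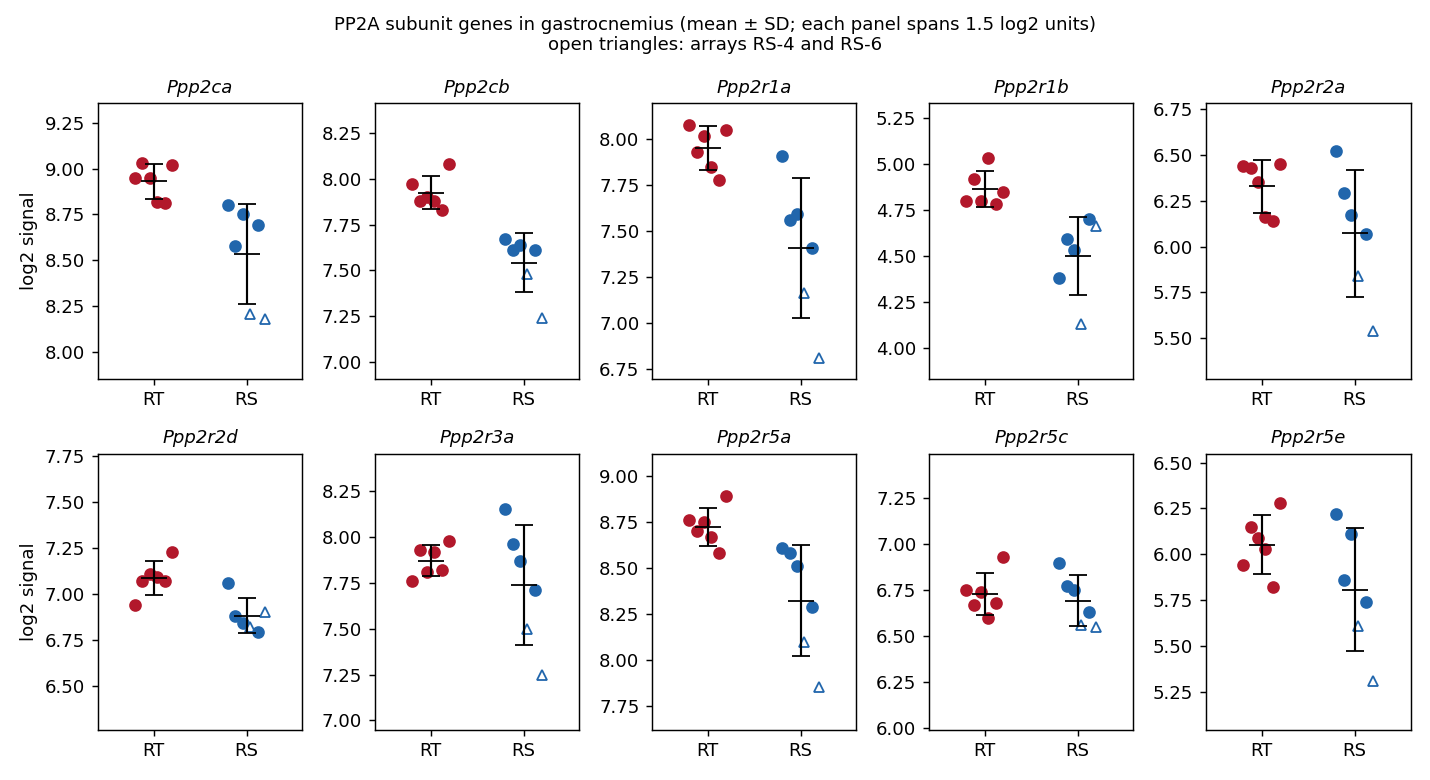
Log2 signal (y axis) of the 10 PP2A subunit genes on the 6 RT and the 6 RS arrays (x axis), 1 point per mouse, with mean and SD as bars and RS-4 and RS-6 as open triangles. RT and RS points do not overlap for Ppp2ca, Ppp2cb and Ppp2r1b, and RS-4 and RS-6 are the 2 lowest arrays for 8 of the 10 genes.

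The promoters are shown for both scaffold genes and for the 2 genes that share an uncommon motif, Ppp2ca and Ppp2r2d. RefSeq promoter windows of build GRCm38.p6 were at hand for 7 of the 10 genes, in 10 windows, and were read over the 250 bases before the start. Ppp2cb, Ppp2r2a and Ppp2r5e had none there. Windows are on the plus strand, at chr11:52098574-52098823 for Ppp2ca, chr7:138846109-138846358 for Ppp2r2d, chr17:20945204-20945453 for Ppp2r1a and chr9:50856674-50856923 for Ppp2r1b. Capitals mark the cAMP response element TGACGTCA, the CCAAT box (CCAAT or ATTGG) and the GC box (GGGCGG or CCGCCC), each read on both strands.
Ppp2ca: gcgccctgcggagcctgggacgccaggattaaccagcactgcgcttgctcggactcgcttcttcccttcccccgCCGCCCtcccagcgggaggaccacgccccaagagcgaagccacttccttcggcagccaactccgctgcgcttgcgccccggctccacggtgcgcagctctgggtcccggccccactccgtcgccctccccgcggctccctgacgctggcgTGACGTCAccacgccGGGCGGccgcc
Ppp2r2d: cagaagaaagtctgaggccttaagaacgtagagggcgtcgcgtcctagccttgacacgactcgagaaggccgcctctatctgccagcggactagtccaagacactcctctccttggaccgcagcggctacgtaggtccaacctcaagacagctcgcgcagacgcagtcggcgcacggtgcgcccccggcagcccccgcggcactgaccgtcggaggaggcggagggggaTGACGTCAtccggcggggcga
Ppp2r1a: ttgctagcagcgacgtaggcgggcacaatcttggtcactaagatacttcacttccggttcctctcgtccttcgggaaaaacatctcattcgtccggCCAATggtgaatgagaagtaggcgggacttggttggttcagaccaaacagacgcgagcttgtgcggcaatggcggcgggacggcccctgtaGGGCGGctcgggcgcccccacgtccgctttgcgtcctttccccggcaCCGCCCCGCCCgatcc
Ppp2r1b: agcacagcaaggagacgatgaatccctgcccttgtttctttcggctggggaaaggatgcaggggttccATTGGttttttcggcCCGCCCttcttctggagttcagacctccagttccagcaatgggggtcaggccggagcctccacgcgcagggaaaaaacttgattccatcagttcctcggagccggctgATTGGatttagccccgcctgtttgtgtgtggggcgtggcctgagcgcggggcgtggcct

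The full cAMP response element stood in Ppp2ca with its first base 26 bases before the start, and in Ppp2r2d with its first base 21 bases before it. A second, overlapping window of Ppp2r2d held the same match 48 bases before its own start. This motif was present in 1.55% of the 32841 windows of all genes. The CCAAT box was found in at least 1 window of 5 of the 7 genes, and twin copies lie in the Ppp2r1b window. It was in 33.9% of all windows. For each motif here, such a share per window cannot be set against a count per gene. Of the 2 windows each of Ppp2r2d and Ppp2r5c, only the second held the CCAAT box. The GC box was found in at least 1 window of 6 of the 7 genes, and in 32.7% of all windows. Of the 2 windows each of Ppp2r3a and Ppp2r5c, only the first held it. In Ppp2r1a it occurs 3 times, and the last 2 copies share 1 base. TATAAA, in either orientation, was in 0 windows of the 7 genes and in 12.4% of all windows. The windows of the 7 genes were 34.0% to 76.4% GC, with a median of 52.4% over all windows. A match is a description of the letters and not a measured binding site.

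The catalytic subunit is encoded by Ppp2ca (alpha) and Ppp2cb (beta), whose proteins are almost the same, and whether probes of one also bind transcripts of the other was not tested. Ppp2ca ran between 8.81 and 9.03 with a median of 8.95 in RT, against 8.18 to 8.80 with a median of 8.635 in RS. Every RT array lay above every RS array, and the RS group was drawn out downward by RS-4 (8.21) and RS-6 (8.18). The mean was 8.93 ± 0.095 in RT and 8.54 ± 0.27 in RS (SD, n = 6 each). The change of 0.395 (1.31-fold) had a SE of 0.11 and an adjusted p of 0.0272 in limma, and the exact permutation test gave 0.00216, the smallest p that 6 against 6 arrays allow. With RS-4 and RS-6 left out the change was 0.225 with an adjusted p of 0.106 in limma, so that Ppp2ca was no longer called, although all 6 RT arrays still lay above the other 4 RS arrays.

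Ppp2cb, the second catalytic gene, ran between 7.83 and 8.08 in RT with a median of 7.89, against 7.24 to 7.67 in RS with a median of 7.61. Here too the groups were fully apart, and 4 of the RS arrays lay close together (7.633 ± 0.029) above RS-4 and RS-6. The change was 0.38 (SE 0.086), with an adjusted p of 0.00994 in limma and 0.00216 in the exact permutation test. It stayed called without RS-4 and RS-6, at 0.29 with an adjusted p of 0.0336 in limma. Taken array by array, the signal of Ppp2ca minus that of Ppp2cb spanned 0.94 to 1.15 in RT and 0.73 to 1.13 in RS. The change of Ppp2ca exceeded that of Ppp2cb by 0.01 (SE 0.07, 95% interval -0.14 to 0.17).

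The scaffold subunit holds the catalytic and the regulatory subunit together, and Ppp2r1a (A alpha) is the form that most cells use. Ppp2r1a had the largest change of the 10 genes on all 12 arrays, whereas Ppp2r1b had it after cyclic loess and with array spread in the fit. It spanned 7.78 to 8.08 with a median of 7.975 in RT, against 6.81 to 7.91 with a median of 7.485 in RS. The RS arrays were widely spread, with RS-1 (7.91) inside the RT range and RS-6 (6.81) far below it, and 4 RT arrays lay above every RS array. The mean was 7.95 ± 0.12 in RT and 7.41 ± 0.38 in RS (SD, n = 6 each). The change was 0.545 (1.46-fold, SE 0.14) with an adjusted p of 0.0192 in limma and an exact permutation p of 0.00649. Without RS-4 and RS-6 it was 0.33 and still called, with an adjusted p of 0.0647 in limma.

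Ppp2r1b (A beta) is the second scaffold gene. Its signals spanned 4.78 to 5.03 in RT with a median of 4.825, against 4.13 to 4.70 in RS with a median of 4.56. The groups did not overlap, and the order within RS differed from that of the other genes. RS-6 (4.66) was the second highest RS array, RS-1 (4.38) the second lowest and RS-4 (4.13) the lowest. The change of 0.365 (SE 0.097) had an adjusted p of 0.0216 in limma and an exact permutation p of 0.00216. Without RS-4 and RS-6 it was 0.31 with an adjusted p of 0.0425 in limma, so this call did not hang on that pair of arrays. The change of Ppp2r1a minus that of Ppp2r1b was 0.18, with a 95% interval of -0.27 to 0.63 that spans 0.

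In 3 of the 10 genes (Ppp2ca, Ppp2cb and Ppp2r1b) every RT array lay above every RS array, a pattern that 2.69% of all rows showed. The share is given as background only.

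Of the B family, which directs PP2A to Akt and, at the end of mitosis, to targets of cyclin-dependent kinases, 2 are among the 10 genes. Ppp2r2a (B55 alpha) spanned 6.14 to 6.45 in RT with a median of 6.39, against 5.54 to 6.52 in RS with a median of 6.12. RS-1 was the highest of all 12 arrays and RS-6 the lowest, so the RT range fell wholly within the RS range. The change of 0.26 (SE 0.13) was not called, with an adjusted p of 0.193 in limma and an exact permutation p of 0.132. It was 0.07 without RS-4 and RS-6, and 0.35 with an adjusted p of 0.0542 in limma when RS-1 alone was left out, which is past the threshold.

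Ppp2r2d (B55 delta), the form that Mastl, Ensa and Arpp19 hold in check in mitosis, differed in that the spread was alike in both groups. It spanned 6.94 to 7.23 in RT with a median of 7.08, against 6.79 to 7.06 in RS with a median of 6.86. RT-1 (6.94) lay among the RS arrays and the other 5 RT arrays lay above RS-1 (7.06), the highest RS array, while RS-6 (6.90) was the second highest RS array and RS-4 (6.82) the second lowest. The change was 0.20 (1.15-fold, SE 0.076) with an adjusted p of 0.0775 in limma and an exact permutation p of 0.00433. This call was lost in 15 of 23 alternative settings, more than any of the other 5. In 12 of the 15 the change stayed between 0.174 and 0.207, among them RS-4 and RS-6 left out, and it was 0.15 with array spread in the fit. After cyclic loess and after quantile normalization between arrays it was 0.07, with adjusted p-values of 0.551 and 0.544 in limma. The change of Ppp2r2a minus that of Ppp2r2d was 0.05 (95% interval -0.27 to 0.37).

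The B'' subunits bind calcium through EF hands, and Ppp2r3a (PR72 and PR130) was the only one among the 10 genes. It spanned 7.76 to 7.98 with a median of 7.87 in RT, against 7.25 to 8.15 with a median of 7.79 in RS. RS-1 (8.15) was above every RT array, while RS-6 (7.25), RS-4 (7.50) and RS-5 (7.71) were below every RT array. The change of 0.13 (SE 0.12) was not called, with an adjusted p of 0.487 in limma and an exact permutation p of 0.396. Its sign turned without RS-4 and RS-6, at -0.05, and after cyclic loess, at -0.01.

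The B' family carries PP2A to the centromere, to ion channels and calcium handling proteins of heart muscle and to nuclear proteins. Of its 3 genes here, Ppp2r5a (B56 alpha) was called and had 4 transcript clusters. On the brightest, which stands for the gene, signals spanned 8.58 to 8.89 in RT with a median of 8.725, against 7.85 to 8.61 in RS with a median of 8.40. RT-5 (8.58) was the 1 RT array within the RS range, and RS-6 (7.85) and RS-4 (8.10) were the lowest. The change was 0.40 (1.32-fold, SE 0.12) with an adjusted p of 0.0338 in limma and an exact permutation p of 0.00649. Without RS-4 and RS-6 it was 0.23 and not called, with an adjusted p of 0.132 in limma.

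The 3 dimmer clusters of Ppp2r5a gave smaller changes of 0.26, 0.20 and 0.22, with adjusted p-values of 0.0766, 0.129 and 0.131 in limma, so only the first of them was called. The 4 clusters followed each other across mice. With the mean of each group taken off, Pearson's r between pairs of them was 0.861 to 0.969 over the 12 arrays and 0.648 to 0.934 without RS-4 and RS-6, as a description of signals from the same arrays. Where in the gene each cluster lies is not given in the sources used here.

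Ppp2r5c (B56 gamma), a subunit known for dephosphorylating p53, also had 4 clusters, of which the brightest pair was low on RS-6 and the dimmer pair was not. The brightest spanned 6.60 to 6.93 in RT with a median of 6.71, against 6.55 to 6.90 in RS with a median of 6.69. These ranges nearly coincide, and the change was 0.035 (SE 0.085) with an adjusted p of 0.802 in limma. The other 3 clusters had changes of 0.10, -0.12 and -0.16, none of them called, with adjusted p-values of 0.455, 0.284 and 0.26 in limma. Pearson's r between pairs of clusters, with group means taken off, ran between -0.377 and 0.591 over the 12 arrays, with the highest value for the 2 brightest. The dimmest cluster, at 3.76 in RT and 3.91 in RS on average, lay below the median row.

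**Figure D2:**
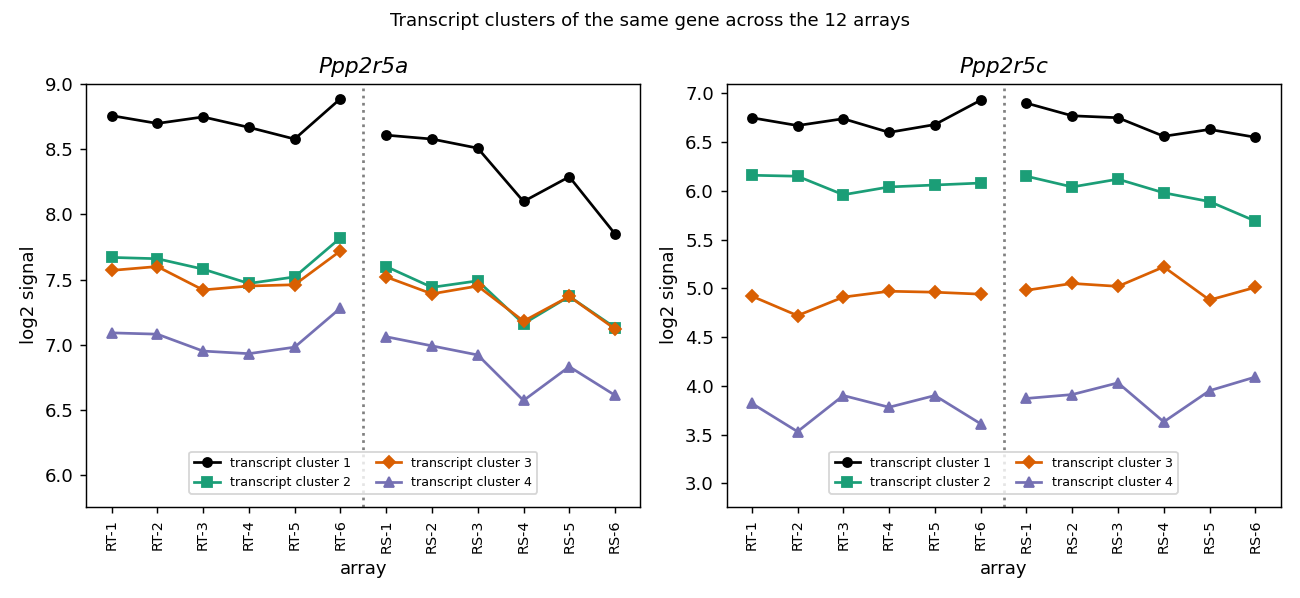
Log2 signal (y axis) of the 4 transcript clusters of Ppp2r5a (left) and of Ppp2r5c (right) on each array (x axis, RT arrays left of the dotted line and RS arrays right of it). Lines join arrays for reading only. The Ppp2r5a clusters share the low values of RS-4 and RS-6 (8.10 and 7.85 on the brightest), whereas of the Ppp2r5c clusters the 2 brightest are lowest on RS-6 (6.55 and 5.69) and the 2 dimmest are not.

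Ppp2r5e (B56 epsilon) spanned 5.82 to 6.28 with a median of 6.06 in RT, against 5.31 to 6.22 with a median of 5.80 in RS. Only RT-6 (6.28) was above every RS array, and RS-6 (5.31), RS-4 (5.61) and RS-5 (5.74) were below every RT array. The change of 0.24 (SE 0.13) was not called, with an adjusted p of 0.213 in limma and an exact permutation p of 0.145. It was 0.07 without RS-4 and RS-6. Without RS-1 it was 0.33 and past the threshold, with an adjusted p of 0.0726 in limma.

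On the brightest cluster of each gene, the change of Ppp2r5a exceeded that of Ppp2r5c by 0.37 (SE 0.08, 95% interval 0.19 to 0.54) and that of Ppp2r5e by 0.16 (SE 0.06, 95% interval 0.02 to 0.30). The intervals are those of 5 pairs of members compared in all and are not adjusted for that number or for the way the genes were chosen. With all rows of a gene averaged, the changes were 0.27 for Ppp2r5a, 0.24 for Ppp2r5e and -0.04 for Ppp2r5c, so the gap between Ppp2r5a and Ppp2r5e rests on the brightest cluster. The signal of Ppp2r5a minus that of Ppp2r5c was 1.90 to 2.07 in RT and at most 1.81 in RS, with no overlap.

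The size of the RT to RS differences moved with a few arrays. The SD was larger in RS than in RT for 10 of 10 genes, against 69.8% of all rows. With both left out it was larger in RS for 7 of 10 genes, against 54.1% of rows. RS-4 and RS-6 were the 2 lowest of the 12 arrays for 8 of the 10 genes, all but Ppp2r1b and Ppp2r2d. This order was found in 9.47% of all rows and in 18.1% of the rows brighter than the median row. At the other end RS-1 was the highest RS array for 9 of the 10 genes (19.4% of all rows, 32.1% of the brighter rows). Among the RT arrays, RT-6 was the highest for 7 genes (18.3% of all rows, 28% of the brighter rows). RT-5 was the lowest RT array for 7 genes (18% of all rows, 24.7% of the brighter rows).

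Without RS-4 and RS-6, 3 genes were called higher (Ppp2cb, Ppp2r1a and Ppp2r1b), with a median change over the 10 genes of 0.21, and 5.70% of all rows were called higher. With array spread (the SD over all rows) added to the fit, 0 genes were called in limma and 3 had an unadjusted p under 0.05, the median change was 0.15, and 2.53% of rows were called higher. After cyclic loess between arrays, 5 genes were called (all of the 6 but Ppp2r2d), with a median change of 0.20 and 9.57% of rows called higher. A further quantile normalization likewise called 5, with a median change of 0.22 and 9.62% of rows called higher. Adding array spread lowered the fitted change of all 10 genes, to unequal degrees. It went from 0.545 to 0.23 for Ppp2r1a, but from 0.365 to 0.32 for Ppp2r1b and from 0.20 to 0.15 for Ppp2r2d. The part of array spread in these changes was not tested.

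**Figure D3:**
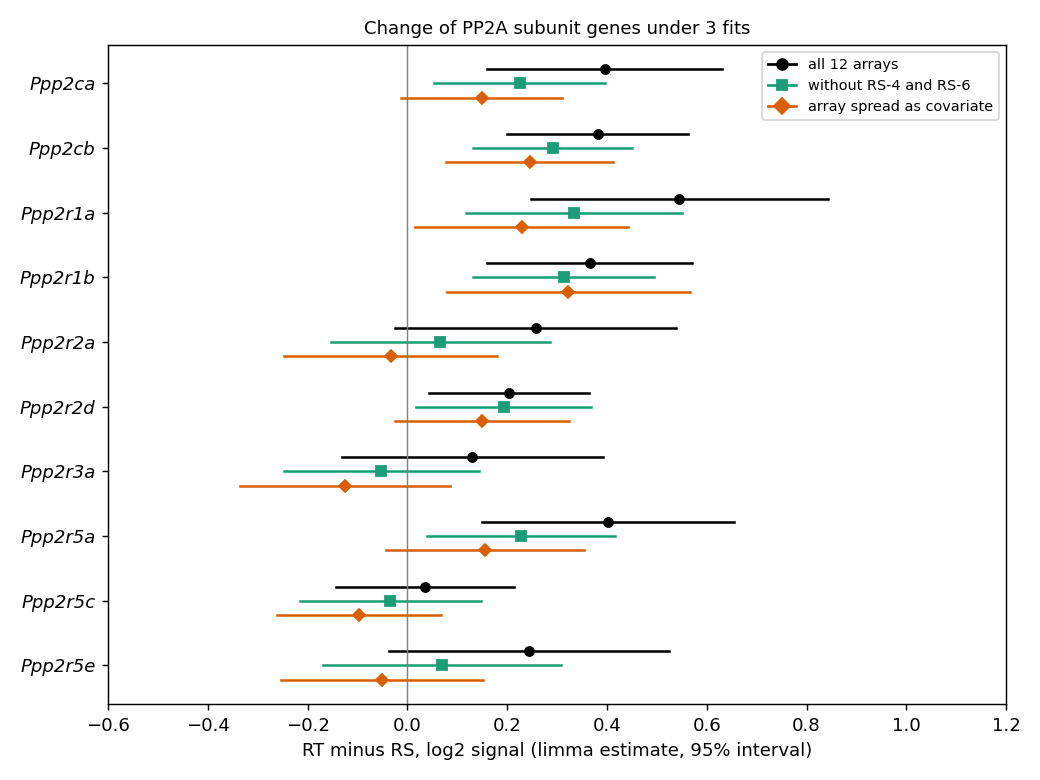
Change of each PP2A gene (RT minus RS, log2 signal, x axis; 1 gene per row) with its 95% interval from limma, on all 12 arrays (black), without RS-4 and RS-6 (green squares) and with array spread in the fit (orange diamonds). The change of Ppp2r1a is 0.545, 0.33 and 0.23 under the 3 fits, and that of Ppp2r1b stays between 0.31 and 0.365.

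The 10 genes were chosen with the contrast of RT and RS known, not by how they varied from mouse to mouse within a group. The low signals of RS-4 and RS-6 enter both, so this variation is not independent of the choice. No median r over pairs of other genes is given here for comparison. After the mean of each group was taken off, the 45 pairs of genes had a median Pearson's r of 0.819 over the 12 arrays, from -0.135 to 0.974. The closest pair was Ppp2r1a and Ppp2r2a, a scaffold and a B subunit, and the lowest was Ppp2r1b and Ppp2r5c. The median was 0.624 over the 10 arrays without RS-4 and RS-6 and 0.613 over the 6 RT arrays alone. These are descriptions of points that share arrays and normalization.

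Ppp2r1b followed the other genes least over the 12 arrays. Its r with Ppp2r1a, the other scaffold gene, was -0.134 over the 12 arrays and -0.704 without RS-4 and RS-6, and with the 8 other genes it lay between -0.135 and 0.198 over the 12 arrays. Over the 6 RT arrays alone its r ran from -0.471 with Ppp2r5c to 0.615 with Ppp2r3a, and was -0.308 with Ppp2r1a. Ppp2r2d had its highest r with Ppp2r5c (0.617) over the 12 arrays, but with Ppp2r3a without RS-4 and RS-6 (0.859) and over the RT arrays (0.77). Its r with the catalytic genes over the 12 arrays was 0.248 for Ppp2ca and 0.226 for Ppp2cb. Ppp2r1b and Ppp2r2d were both among the 6 genes called higher in RT.

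Genes outside PP2A also followed these members closely. The 19937 other genes with a single symbol include the other PP2A members, some of which are also in the counts that follow. Of the 19937, 444 had an r over 0.9 with Ppp2r1a, led by Gabpb1 (0.987), H13 (0.98) and Trappc2 (0.979). For Ppp2r5a the number was 469, led by Gspt1 (0.99), Tmem59 (0.988) and Idh3a (0.986). Gabpb1 is a subunit of a transcription factor, H13 a signal peptide peptidase, Trappc2 a vesicle trafficking protein, Gspt1 a translation termination factor and Idh3a an enzyme of the TCA cycle. Their r was 0.93 to 0.95 with Ppp2r1a and 0.975 to 0.99 with Ppp2r5a when RS-4 and RS-6 were left out.

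Further PP2A subunits, genes that act on or with PP2A, and subunits of related phosphatases were followed in 6 lists of 54 genes. Of the 54, 52 had a row with a single symbol. Of the 52, 5 were called higher in RT, 0 lower, and 47 were not called, with 10 at an unadjusted p under 0.05, 9 of them higher. Of the 5, 2 were PP2A subunits and 3 were catalytic subunits of other phosphatases. The share of 11.9% of all rows called higher is the background. Of the 52 genes, 41 were brighter than the median row, and rows above that level were called higher in 20.6% of cases. The median change of the 52 genes was 0.09, against 0.08 for those brighter rows, -0.01 for all rows and 0.31 for the 10 genes chosen with this contrast known.

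Among the 8 measured genes of further PP2A subunits, 2 were called higher. Strn, the striatin that builds PP2A into complexes with kinases of the Ste20 family, spanned 5.38 to 5.55 in RT, against 4.87 to 5.41 in RS. Its change was 0.32 (SE 0.10) with an adjusted p of 0.0442 in limma, and it was 0.36 and still called without RS-4 and RS-6. Ppp2r5b (B56 beta) spanned 5.95 to 6.22 in RT, against 5.73 to 6.06 in RS. Its change of 0.20 (SE 0.082) had an adjusted p of 0.0978 in limma, just inside the threshold, and it was 0.17 and not called without RS-4 and RS-6. Ppp2r2b, a B gene named after its value was seen, had the opposite sign, at 3.50 ± 0.089 in RT and 3.71 ± 0.21 in RS (SD, n = 6 each). Its change of -0.21 had an unadjusted p of 0.0417 and an adjusted p of 0.137 in limma, and was not called.

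Ptpa, Lcmt1, Ppme1, Igbp1 and Tiprl were listed for the assembly of the C subunit and the control of its methylation. They held 0 calls in limma and by the methods' analysis of variance, and 1 had an unadjusted p under 0.05. Of the 10 inhibitors, such as Set, Anp32a, Ensa and Arpp19, 0 were called by either test and 0 had an unadjusted p under 0.05. Their changes spanned -0.11 to 0.16. Set averaged 3.175 in RT and 3.23 in RS, below the median row (4.49), and Cip2a, Mastl and Pabir2 were below it too. Such dim rows may not show a change, so a missing call says little about these genes. Of the 11 measured striatin partners, among them Mob4, Stk24 and Slmap, 0 were called by either test and 3 had an unadjusted p under 0.05, with a median change of 0.16. Of the 8 regulators of PP4 and PP6, 0 were called in limma with 0 at an unadjusted p under 0.05, and 2 by the methods' analysis of variance. The striatin partners Stk26, Strip2 and Cttnbp2 and the regulator Ppp4r4 were also dimmer than the median row.

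Of 10 catalytic subunits of related phosphatases, 3 were called higher. Ppp1ca, a catalytic subunit of protein phosphatase 1, which acts on glycogen enzymes in muscle, averaged 8.66 ± 0.14 in RT and 8.20 ± 0.36 in RS (SD, n = 6 each). Its change of 0.455 (SE 0.14) had an adjusted p of 0.0357 in limma, and without RS-4 and RS-6 it was 0.28 and not called. Ppp5c, a phosphatase that works with Hsp90, spanned 7.39 to 7.60 in RT, against 7.04 to 7.37 in RS, with no overlap. Its change of 0.33 (SE 0.082) had an adjusted p of 0.0158 in limma and stayed called without RS-4 and RS-6, at 0.27. The third was Ppp3cc, a catalytic subunit of calcineurin, with a change of 0.22 and an adjusted p of 0.0899 in limma, named after its value was seen. It was 0.16 and not called without RS-4 and RS-6, with an adjusted p of 0.292 in limma.

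**Figure D4:**
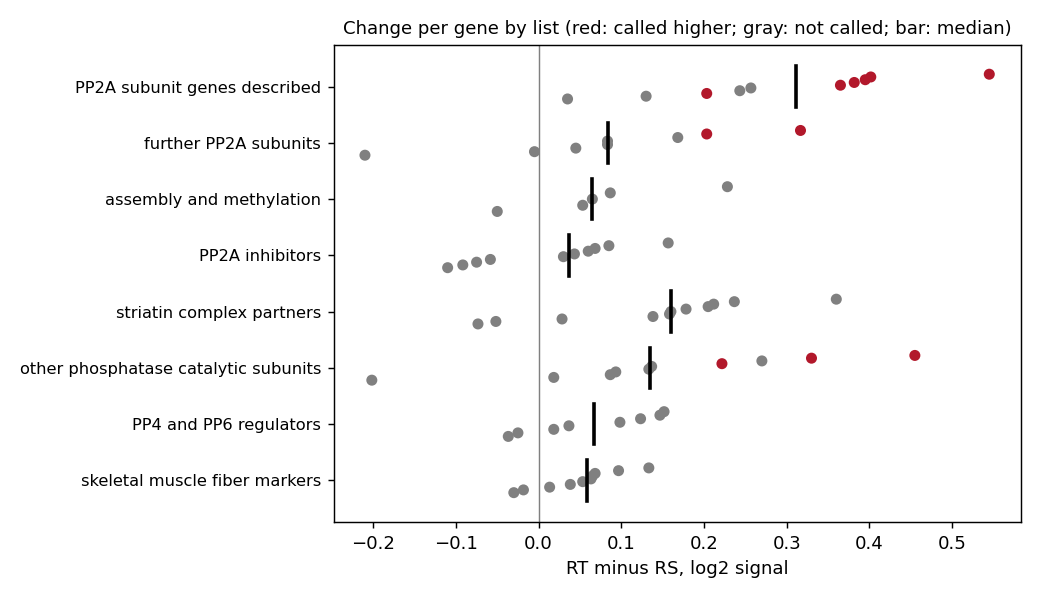
Change per gene (RT minus RS, log2 signal, x axis) for the 10 PP2A genes, 6 lists of related genes and the skeletal muscle markers (rows), with called genes in red, others in gray and the median as a bar. The median is 0.31 for the 10 genes chosen with this contrast known, between 0.04 and 0.16 for the 6 related lists and 0.06 for the muscle markers.

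Whole muscle holds other cells beside fibers, and fewer cells of a type cannot be told apart from less RNA per cell in such samples. In the fit of all 12 arrays, every measured marker of other cell types but Fcgr1 changed in the same direction as the PP2A genes. Fcgr1, a macrophage marker, had a change of -0.10 and was not called. Fibroblast markers were called higher for 8 of 9 measured genes with a median change of 0.59, and their summed level (log2 of summed signals) was 12.14 to 12.50 in RT, against 11.17 to 12.18 in RS. Macrophage markers were called higher for 6 of 8 with a median of 0.83, at 8.85 to 9.39 in RT and 7.82 to 8.67 in RS. Adgre1, one of those called, had a change of 0.44 with an adjusted p of 0.0232 in limma. The study's own PCR of this gene in gastrocnemius gave the opposite direction, a trend to lower levels in RT. The reason for this difference was not tested. Endothelial markers were called higher for 6 of 8 with a median of 0.53, at 9.88 to 10.24 in RT and 9.30 to 9.86 in RS. Adipocyte markers were called higher for 4 of 6 measured genes with a median of 0.69, at 9.07 to 9.62 in RT and 8.57 to 9.10 in RS. Left without RS-4 and RS-6, the calls were 5 for fibroblasts, 6 for macrophages, 4 for endothelial cells and 3 for adipocytes, and with array spread in the fit 2, 5, 2 and 1 in that order. Over all rows, 11.9% were called higher on the 12 arrays, 5.70% without RS-4 and RS-6 and 2.53% with array spread. Among rows brighter than the median row the share on the 12 arrays was 20.6%. The methods' analysis of variance called 4 fibroblast, 6 macrophage, 6 endothelial and 3 adipocyte markers. RS-6 had the lowest fibroblast, macrophage and endothelial sums of all 12 arrays, as it had the lowest signal for 8 of the 10 PP2A genes. No marker listed was at 0, and the lowest mean signal among them was 3.38. PP2A is present in all of these cell types, and their part in its change was not tested.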

How the data were processed

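Gastrocnemius RNA of 12 mice (6 RT, 6 RS) was measured on 12 one-color Affymetrix Mouse Gene 1.0 ST arrays. The deposited table gives log2 signals for 28944 transcript clusters, after background correction, summarization and normalization by RMA on the authors' side. Their array paragraph names the SST-RMA variant, and which form gave these values is not settled. The array build is not given in the sources used here. The platform annotation gave 21789 rows 1 symbol, 1621 rows several and 5534 rows none, and only rows with 1 symbol were named. The row with the highest mean signal stood for a gene with several. The table held 0 columns of other samples.

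RT was compared with RS in limma 3.58.1 (R 4.3.3, lmFit and eBayes, two-sided, no covariate) over all rows, and called where p was under 0.05 and its Benjamini-Hochberg adjusted value under 0.1. Adjusted p-values are from limma unless the methods' analysis of variance is named. Exact two-sided permutation tests used all 924 assignments of 6 of 12 arrays. The scripts were tested on simulated data. The number of arrays limits the precision, and p-values measure only the spread between these mice.

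The members and gene lists were chosen with earlier results of these data known. Named are all 10 members, the called genes of the further subunit, assembly and inhibitor lists, up to 2 called genes per direction of each further list, and for the 2 members with the largest change the 3 genes most like them. Other list members are named as examples. Marker lists covered skeletal muscle fibers, fibroblasts, macrophages, endothelial cells and adipocytes. The replicate numbers were checked for pairing and do not pair the mice. Alternatives were quantile normalization, median centring, cyclic loess, leaving out the dimmest 33.3% of rows, the methods' one-way analysis of variance, a trended robust eBayes, array weights, the replicate block, the spread of each array, each array or both RS-4 and RS-6 left out, adjusted p under 0.05 or 0.01, and the mean of all rows of a gene. The correlation without RS-4 and RS-6 was added after seeing the data.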

Additional observations from a re-analysis of the deposited data

Results flagged for a closer look

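Of 32 groups of 6 arrays tested for a value far from the others (16 rows of the PP2A genes in RT and in RS), 1 held such a value, and chance gives about 1 in 20. On the third brightest of the 4 transcript clusters of Ppp2r5c, RT-2 lay at 4.72, while the nearest RT array was at 4.91 and the highest at 4.97. The gap was 0.76 of the range, above the critical value of 0.625 for 6 samples. The change of this cluster was -0.12 and was not called.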

How the results depend on the processing

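The 6 PP2A calls became 0 with array spread as a covariate, 3 without both RS-4 and RS-6, and 1 at an adjusted p under 0.01. Leaving out 1 array at a time gave 5 to 8 calls (8 without RS-1). No alternative run called a PP2A gene lower. The median change of 0.31 was 0.149 with the spread covariate and 0.25 to 0.34 with 1 array left out. Signs turned with the spread covariate for Ppp2r2a (-0.0335), Ppp2r3a (-0.125), Ppp2r5c (-0.0976) and Ppp2r5e (-0.0518), without RS-4 and RS-6 for Ppp2r3a (-0.0525) and Ppp2r5c (-0.0342), after cyclic loess for Ppp2r3a (-0.0122) and Ppp2r5c (-0.0963), and for Ppp2r5c after quantile normalization (-0.0937) and with all rows averaged (-0.0371). With 1 array left out Ppp2r5c lay between -0.00533 (without RT-6) and 0.0763 (without RS-1). None of these 4 genes had been called. The 5 related genes called higher became 3 after quantile normalization, cyclic loess or at an adjusted p under 0.05, 13 after median centring, 0 with the spread covariate (4 at an unadjusted p under 0.05) or at an adjusted p under 0.01, 2 without RS-4 and RS-6, and 3 to 10 with 1 array left out. The 10 came without RS-1, and 3 were left without RS-4, RS-5, RS-6, RT-1, RT-2, RT-3, RT-4 or RT-6. Related genes called lower were 2 after quantile normalization and after cyclic loess (the inhibitors Ensa and Bod1), and 0 to 1 with 1 array left out (Ppef2 without RS-1). Over all rows, 47.8% of calls were higher, against 70.9% after median centring. The replicate block, whose numbers do not pair the mice (same-number r of -0.24 to 0.107, 1 RT array closest to its own number), called 5 PP2A genes, losing Ppp2r2d (0.20, adjusted p = 0.155 in limma), and 4 related genes, with a median change of 0.31. The cause of these shifts was not tested. RNA quality and scan order were not analysed here, and dim rows lie close to background.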
